A study of Arabidopsis thaliana with 12 samples.

Results

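A group of 10 genes was followed across all groups of an Arabidopsis thaliana RNA sequencing series: HSFA2 (AT2G26150), HSFA3 (AT5G03720), HSFA6A (AT5G43840), HSFA6B (AT3G22830), HSFA7A (AT3G51910), HSFA7B (AT3G63350), DREB2A (AT5G05410), DREB2B (AT3G11020), DREB2C (AT2G40340) and MBF1C (AT3G24500). They were chosen by locus for what they encode, and all 10 are among the 33330 features of the count table. Of these, 9 had enough reads to be tested, among 20232 features tested. HSFA6A was not tested. The RNA was total RNA of seedlings aged 6 days. Their genotype was either wild type, written WT here, or the one labelled hd2b hd2c. HD2B and HD2C encode plant-specific histone deacetylases, and the labels name no allele or line. Seedlings of each genotype either stayed at 22 °C, called normal below, or spent 3 h at 44 °C, called heat, and each of the 4 groups has 3 libraries. Whether the libraries of a group are separate cultures is not in the labels. The p-values therefore speak of the spread among libraries, which may be technical.

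Class A heat stress transcription factors (HSFs) are proteins that bind heat shock elements, short inverted repeats of GAA and TTC units, and switch on chaperone genes. In Arabidopsis the HSFA1 factors are present before stress and start the response. HSFA2, HSFA7A and HSFA7B are induced by heat, and HSFA2 prolongs the response and is needed for its memory. HSFA6A and HSFA6B are better known from salt, drought and abscisic acid signalling. DREB2A, DREB2B and DREB2C belong to another family, the AP2/ERF factors, which bind the dehydration-responsive element with the core CCGAC, and DREB2A and DREB2C act upstream of HSFA3. MBF1C is a transcriptional coactivator needed for heat tolerance.

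The sequence just before a gene's annotated start is shown for the HSF and DREB2 genes with matches to the heat shock element, and for DREB2B, which rose after heat without such a match. Sequences were read from the TAIR10.1 reference genome, up to 250 bases before the start of the gene and no further than the neighbouring gene. The reads themselves were aligned to TAIR10. All 5 stretches are on the plus strand, 5′ to 3′, and they are chr2:11135466-11135623 for HSFA2, chr3:19264891-19265140 for HSFA7A, chr3:23398986-23399235 for HSFA7B, chr5:1601955-1602204 for DREB2A and chr3:3455105-3455354 for DREB2B. Capitals mark pairs of facing units, GAANNTTC or TTCNNGAA, where N is any base.
HSFA2: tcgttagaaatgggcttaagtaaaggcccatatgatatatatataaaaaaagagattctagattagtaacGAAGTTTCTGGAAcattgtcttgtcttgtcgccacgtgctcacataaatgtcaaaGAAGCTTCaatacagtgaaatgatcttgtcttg
HSFA7A: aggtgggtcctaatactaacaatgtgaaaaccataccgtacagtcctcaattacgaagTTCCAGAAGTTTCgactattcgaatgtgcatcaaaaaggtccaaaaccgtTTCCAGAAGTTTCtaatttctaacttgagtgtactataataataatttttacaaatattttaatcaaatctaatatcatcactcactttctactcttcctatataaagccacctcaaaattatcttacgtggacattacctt
HSFA7B: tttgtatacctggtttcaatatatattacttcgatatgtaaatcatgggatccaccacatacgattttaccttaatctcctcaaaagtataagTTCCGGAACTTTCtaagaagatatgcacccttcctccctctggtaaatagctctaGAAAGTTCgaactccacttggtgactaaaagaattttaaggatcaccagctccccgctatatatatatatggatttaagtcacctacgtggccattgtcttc
DREB2A: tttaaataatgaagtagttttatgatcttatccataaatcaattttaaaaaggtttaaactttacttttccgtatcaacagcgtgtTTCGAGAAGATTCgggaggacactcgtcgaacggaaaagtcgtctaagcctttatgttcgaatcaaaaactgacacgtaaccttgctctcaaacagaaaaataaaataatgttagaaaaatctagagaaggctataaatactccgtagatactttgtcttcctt
DREB2B: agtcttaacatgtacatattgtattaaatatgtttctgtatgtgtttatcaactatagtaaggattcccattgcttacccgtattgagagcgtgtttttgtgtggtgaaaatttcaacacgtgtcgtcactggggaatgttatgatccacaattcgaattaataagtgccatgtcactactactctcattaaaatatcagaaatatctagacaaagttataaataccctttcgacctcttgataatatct
In the first 4 stretches the capitals hold a run of 3 alternating units, TTC, GAA and TTC with any 2 bases between neighbours, or its reverse complement. HSFA7A has 2 such runs with the same letters, TTCCAGAAGTTTC, whose first bases lie 192 and 142 bases before the gene start. The single runs start 88 bases before HSFA2 (GAAGTTTCTGGAA), 157 before HSFA7B (TTCCGGAACTTTC) and 164 before DREB2A (TTCGAGAAGATTC). HSFA2 and HSFA7B each hold a further pair, 33 and 102 bases before the start. Over the same 250-base windows of 26708 protein-coding genes, 0.393% held the run of 3 units and 16% held either pair. The core CCGAC was searched on both strands and was in none of the 10 windows, against 11.9% of all windows. The core of the abscisic acid-responsive element, ACGTG on either strand, was in 6 of the 10 and in 23.1% of all windows. A match describes the letters of a window and not a bound site, and windows of some genes run into a neighbour. HSFA3 has only 33 bases between its start and the end of the neighbouring gene CTR1, and the whole MBF1C window lies inside MSH7.

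**Figure D1:**
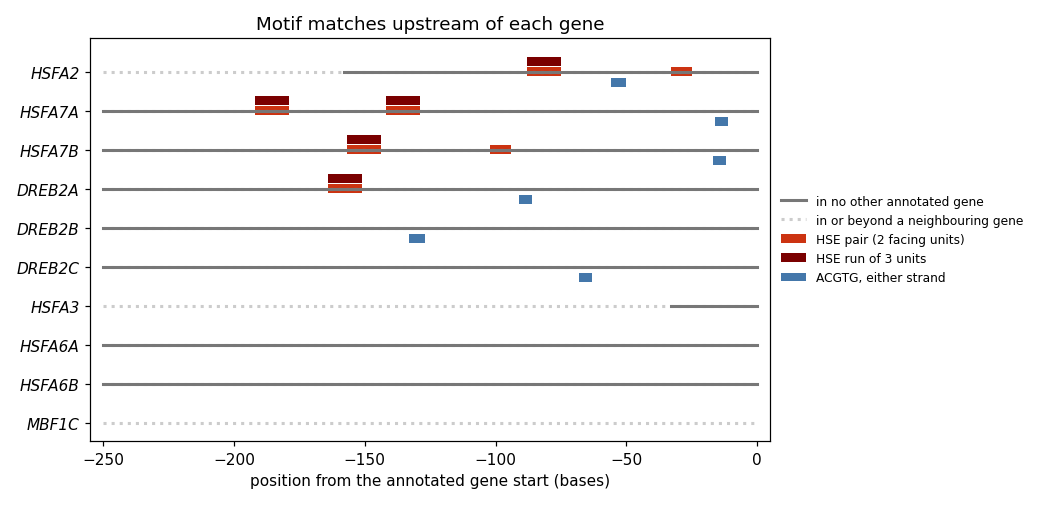
Position of motif matches in the 250 bases before the annotated start of each of the 10 genes, in bases from the start. Red bars are pairs of facing heat shock element units, dark bars are runs of 3 units, blue bars are ACGTG on either strand, and dotted lines are stretches in or beyond a neighbouring gene. Runs of 3 units are drawn before 4 genes, HSFA2, HSFA7A, HSFA7B and DREB2A, and HSFA7A has 2 of them.

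Levels are in CPM, the gene's reads relative to the total of its library after TMM scaling, and changes are log2 fold changes with standard errors (SE) from edgeR's quasi-likelihood test. A gene was called, and is said to have risen or fallen, where its adjusted p (Benjamini-Hochberg, over all genes tested) was under 0.05. Libraries held 7737285 to 24030931 counts. The smallest, hd2b hd2c heat replicate 2, also had 11.2% of its counts from ribosomal RNA, against 0.734% to 5.02% in the other 11, and results that turn on it are given with and without it. HD2B was lower in hd2b hd2c than in WT, at 23.8 ± 2.76 against 40.0 ± 3.00 CPM at normal temperature (mean ± SD, n = 3). HD2C was higher, at 98.1 ± 6.97 against 37.3 ± 2.40 CPM, so directions between genotypes rest on the label. With heat in WT all 3 green tissue markers rose and their summed level went from 24401 to 28408 CPM up to 131077 to 188099 CPM, while 2 of 3 root markers and the stomatal marker FAMA fell. In hd2b hd2c the green sum went from 17604 to 24849 CPM up to 85277 to 223903 CPM, 2 root markers and FAMA fell, and 1 root marker rose. The 2 vascular markers and the 2 tested markers of shoot meristem and epidermis rose with heat in each genotype. None of the 11 markers tested, of 17 listed, was called between genotypes. The seed gene HSFA9 had 0 counts in every library, and no seed or floral marker had enough reads to be tested, the 3 seed markers summing to at most 3.33 CPM. In RNA from whole seedlings, fewer cells of a type and less RNA per cell cannot be told apart, and the part of tissue make-up in the results below was not tested.

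Heat raised 6 of the 9 tested genes in WT and lowered none. Of all tested genes 65.8% were called, 31.0% higher and 34.8% lower. HSFA7B, HSFA2, MBF1C and HSFA7A had the largest changes among them. The sizes rest on the scaling, with TMM factors of 1.62 to 1.86 in normal and 0.424 to 0.744 in heat libraries. Over 19 alternatives the lowest WT changes were 8.93 for HSFA7B, 8.62 for HSFA2, 7.01 for MBF1C and 5.49 for HSFA7A. For DREB2A and DREB2B they were 4.92 and 1.22, and all 6 genes were called in every alternative. HSFA2 stood at 2.00, 2.75 and 1.45 CPM in WT normal replicates 1 to 3 and at 2321, 2235 and 2323 CPM in WT heat. The change was 10.15 on the log2 scale (SE 0.279, adjusted p 6.83e-19), the 19th largest of 20232. HSFA7A went from 5.59, 6.08 and 4.74 CPM to 705, 668 and 749.7 CPM, a change of 7.02 (SE 0.174, adjusted p 1.38e-19). HSFA7B had 2, 2 and 7 counts before heat and 2477, 2153 and 2328 counts after it. On scaled library sizes that was a 1458-fold ratio, with an exact 95% interval of 814 to 2922 that covers counting error only. For each of these 3 genes every heat library lay far above every normal library. All 3 WT heat libraries lay above all 3 WT normal libraries for 33.1% of all tested genes, and below for 37.7%. Per kilobase of exon, HSFA2 rose in rank from 16452 to 118 of 20070 genes, HSFA7A from 10184 to 219 and HSFA7B from 19847 to 726.

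The DREB2 genes split. DREB2A, whose protein is degraded in unstressed plants and stabilised by heat, stood at 6.93, 6.82 and 5.91 CPM in WT normal and at 621, 541 and 547 CPM in WT heat. It rose by 6.44 (SE 0.174, adjusted p 4.80e-19). AT5G05420, which overlaps it by 73 bases on the opposite strand, averaged 1.89 CPM after heat. DREB2B, its nearest relative, rose from 3.35, 2.47 and 4.17 CPM to 26.3, 22.2 and 18.4 CPM, or by 2.72 (SE 0.209, adjusted p 9.94e-11). DREB2B shares 1086 bases with TBL32 on the opposite strand, and the sources used here do not give the strand setting of the counting. TBL32 fell with heat in WT, by 0.69 on the log2 scale (adjusted p 0.0183), while DREB2B rose. In WT, TBL32 averaged more CPM than DREB2B before heat and less after it. The part of this overlap in the DREB2B counts, and so in the size of its change, was not tested. DREB2C, which other work describes as heat-inducible, had 3.06, 2.92 and 2.37 CPM before and 1.84, 2.65 and 2.35 CPM after heat, with overlapping libraries and no call (−0.29, SE 0.281, adjusted p 0.367). MBF1C rose from 4.01, 3.10 and 3.15 CPM to 1333, 1234 and 1289 CPM, or by 8.54 (SE 0.225, adjusted p 3.61e-19), the 42nd largest change. MBF1C overlaps its neighbours MSH7 by 22 bases and ALDH2C4 by 124 bases on the opposite strand. It also overlaps an antisense RNA gene on that strand, whose level is not given here. After heat in WT, MSH7 and ALDH2C4 averaged 9.69 and 162 CPM, far below MBF1C. Before heat in WT, both averaged more CPM than MBF1C. The part of these overlaps in the MBF1C counts, and so in the size of its change, was not tested.

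HSFA3, HSFA6A and HSFA6B did not follow HSFA2 in WT. HSFA3, a target of the DREB2 factors, had 2.93, 4.36 and 4.25 CPM before heat and 4.30, 6.27 and 4.52 CPM after it (0.40, SE 0.275, adjusted p 0.205). That sign rests on the scaling, since library totals alone gave −1.12 (adjusted p 0.0101). HSFA6B stayed between 0.177 and 1.10 CPM in all 6 WT libraries and was not called (adjusted p 0.334). HSFA6A had 0, 1 and 8 counts in WT normal and 4, 3 and 0 in hd2b hd2c normal. It had 0 counts in all 6 heat libraries, where a floor of 3 counts over a group allows up to 0.0827 CPM in WT and 0.0806 CPM in hd2b hd2c. At these depths a change of HSFA6A was not detectable.

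**Figure D2:**
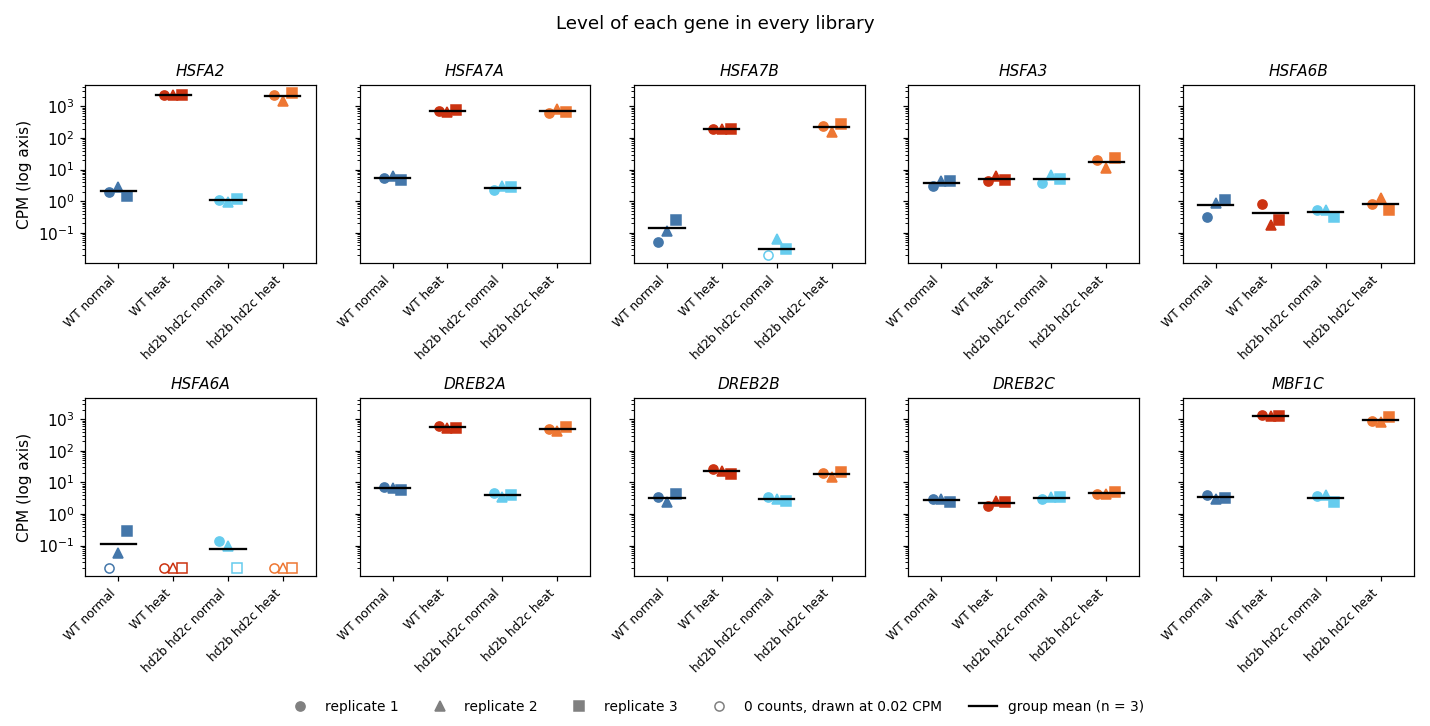
Level of each of the 10 genes in every library, in CPM on a log axis. Marker shapes are replicates, bars are group means (n = 3), and open markers are libraries with 0 counts, drawn at 0.02 CPM. HSFA2, HSFA7A, HSFA7B, DREB2A, DREB2B and MBF1C sit higher in every heat library than in every normal library, and HSFA3 is highest in the 3 hd2b hd2c heat libraries, at 11.0 to 22.9 CPM.

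In hd2b hd2c, heat raised 7 of the 9 tested genes and lowered none. Of all tested genes 61.5% were called, 29.9% higher and 31.5% lower. All 3 heat libraries lay above all 3 normal libraries for 8 of the 9, and for 30.5% of all tested genes, with 35.8% lying below. The 7 that rose were the 6 genes that rose in WT, and HSFA3. DREB2C was also without overlap and was not called. HSFA2 went from 1.11, 0.955 and 1.21 CPM to 2302, 1439 and 2592 CPM, a change of 10.91 (SE 0.290, adjusted p 3.47e-19). The lowest of the heat values belonged to replicate 2. HSFA7A went from 2.22, 2.99 and 2.81 CPM to 641, 811 and 663 CPM, or by 8.03 (SE 0.184), and here replicate 2 was the highest. HSFA7B had 0, 2 and 1 counts before heat and 3860, 513 and 4738 after it, a ratio of 7475 with a 95% counting interval of 2557 to 36254. DREB2A rose by 6.95 (SE 0.179), from 4.73, 3.41 and 3.99 to 504, 416 and 577 CPM. DREB2B rose by 2.66 (SE 0.211), from 3.58, 2.99 and 2.57 to 19.9, 14.9 and 21.4 CPM. MBF1C rose by 8.16 (SE 0.222), from 3.73, 3.88 and 2.32 to 882, 811 and 1145 CPM. HSFA3 rose from 3.76, 6.68 and 5.17 to 20.2, 11.0 and 22.9 CPM, or by 1.85 (SE 0.250, adjusted p 1.04e-06), and with library totals alone it did not pass (0.43, adjusted p 0.261). DREB2C lay between 3.01 and 3.53 CPM before and between 4.25 and 4.92 CPM after heat, without overlap and without a call (0.45, SE 0.265, adjusted p 0.145), and library totals alone turned it to −0.98 (adjusted p 0.00682).

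**Figure D3:**
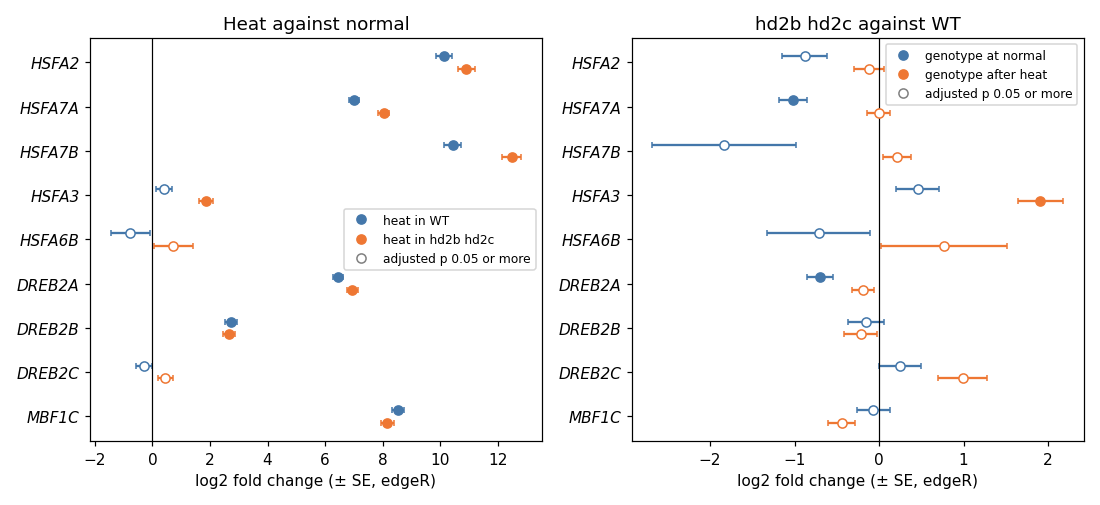
Log2 fold changes of the 9 tested genes with SE from edgeR. The left panel shows heat against normal in WT and in hd2b hd2c, the right panel shows hd2b hd2c against WT at each temperature, and open circles have an adjusted p of 0.05 or more. The fitted HSFA7B values rest on 3 to 11 counts in the normal groups, so the right panel shows a wide error for it at normal temperature (SE 0.848). The filled points on the right are HSFA7A and DREB2A at normal temperature and HSFA3 after heat.

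Among 10 class A HSF genes, the one with the largest share of transcripts in WT was HSFA7A before heat and HSFA2 after it. Counts per kilobase of exon were summed over these genes, namely HSFA1A, HSFA1B, HSFA1D, HSFA1E and the 6 HSFA genes above. In WT normal libraries the 4 HSFA1 genes held 48.9% ± 2.90 of that sum (mean ± SD, n = 3), HSFA7A 29.1% ± 2.06, HSFA3 8.47% to 12.6% and HSFA2 6.74% ± 1.62. In WT heat libraries HSFA2 held 60.5% ± 0.707, HSFA7A 30.2% ± 0.872 and HSFA7B 8.78% ± 0.188, while the HSFA1 genes held 0.401% ± 0.0510. Of the 4 HSFA1 genes only HSFA1E was called with heat in WT, which rose (1.08, adjusted p 0.00304). HSFA1A, HSFA1B and HSFA1D were at −0.87, −0.43 and 0.28. The signs of HSFA1D and HSFA1E and the calls of all 4 genes rest on the scaling. With library totals alone HSFA1E was at −0.44 and not called, and HSFA1A (−2.36, adjusted p 0.000853), HSFA1B (−1.94, adjusted p 8.37e-05) and HSFA1D (−1.25, adjusted p 0.00536) were lower. In hd2b hd2c heat libraries HSFA2 held 56.8% ± 8.21 and HSFA7A 32.1% ± 9.61. Most of that spread came from replicate 2, where HSFA2 held 47.3% and HSFA7A 43.2%. Before heat, HSFA7A held 15.8% to 19.6% in hd2b hd2c and 26.8% to 30.9% in WT, ranges that did not overlap. Among the 8 DREB2 genes, DREB2A held 39.3% ± 2.83 of the per-kilobase sum in WT normal and 95.4% ± 0.415 in WT heat. Before heat in hd2b hd2c it held 26.6% ± 3.55. MBF1C held 1.85% ± 0.328 of the 3 MBF1 transcripts in WT normal and 86.1% ± 1.39 in WT heat. Summed over all 10 genes, the level went from 28.5 ± 0.954 to 5078 ± 159 CPM in WT and from 23.2 ± 1.71 to 4524 ± 819 CPM in hd2b hd2c.

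**Figure D4:**
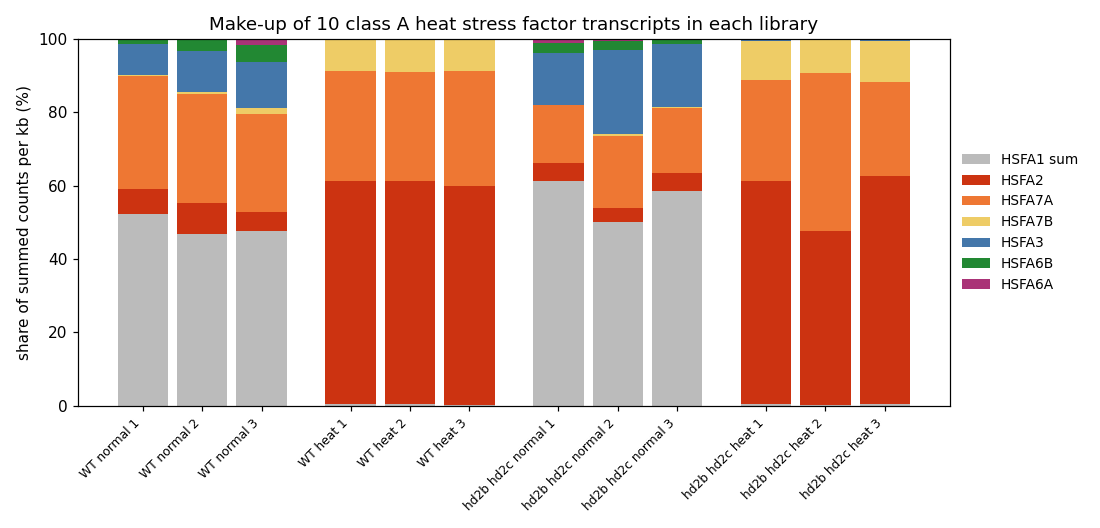
Make-up of the summed counts per kilobase of 10 class A HSF genes in each library, in percent, with the 4 HSFA1 genes as 1 block. HSFA1 genes hold 46.9% to 61.3% in normal libraries. After heat HSFA2 and HSFA7A hold most of the sum, and hd2b hd2c heat replicate 2 has a smaller HSFA2 share (47.3%) than the other 5 heat libraries.

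At normal temperature, hd2b hd2c had lower levels of HSFA7A and DREB2A than WT. These 2 of the 9 tested genes fell and none rose, against 1.67% of all tested genes that fell. HSFA7A was at 2.68 ± 0.404 CPM in hd2b hd2c and 5.47 ± 0.676 CPM in WT, a difference of −1.02 (SE 0.161, adjusted p 0.000699). Its highest hd2b hd2c library, at 2.99 CPM, lay below its lowest WT library, at 4.74 CPM. DREB2A was at 4.04 ± 0.663 against 6.55 ± 0.562 CPM, or −0.70 (SE 0.158, adjusted p 0.0143), again without overlap. The DREB2A call was lost without WT normal replicate 1 (adjusted p 0.0876) or 2 (0.0829), without hd2b hd2c normal replicate 2 (0.122) or 3 (0.0624), and with library totals alone (0.46). HSFA2 was also lower in all 3 hd2b hd2c libraries, at 1.09 ± 0.127 against 2.07 ± 0.653 CPM, and did not pass (−0.88, SE 0.269, adjusted p 0.0881). HSFA2 passed with DESeq2 (0.0224), with no filter on low counts (0.0113) and without hd2b hd2c heat replicate 2 (0.0142). Groups that do not overlap in that direction were found for 3 of the 9 genes and for 13.7% of all genes tested. HSFA7B had 3 counts in hd2b hd2c and 11 in WT, a 4.02-fold lower ratio with a 95% counting interval of 1.06 to 22.4, and was not called (adjusted p 0.335). MBF1C, at 3.31 against 3.42 CPM, and DREB2B, at 3.05 against 3.33 CPM, were close to WT with overlapping libraries (differences −0.07, SE 0.196, and −0.15, SE 0.217).

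After heat, HSFA3 was higher in hd2b hd2c than in WT, and it was the only one of the 9 tested genes called, against 1.59% of all tested genes that rose and 1.18% that fell. Its level was 18.0 ± 6.24 against 5.03 ± 1.08 CPM, a difference of 1.91 (SE 0.267, adjusted p 0.000241). The lowest hd2b hd2c library, replicate 2 at 11.0 CPM, lay above the highest WT library, at 6.27 CPM. The difference was 2.11 (adjusted p 2.25e-06) without that replicate, and the call held in all 19 alternatives run. HSFA3 lies near HD2C on chromosome 5, with CTR1 between them. CTR1, a kinase gene of ethylene signalling, ends 33 bases before the start of HSFA3 on the same strand, and HD2C is the next gene beyond it. CTR1 stood at 36.1, 40.9 and 33.3 CPM in WT heat and at 215, 226 and 240.1 CPM in hd2b hd2c heat, a difference of 2.63 (SE 0.118, adjusted p 6.69e-13). HD2C stood at 152, 143 and 151 CPM in WT heat and at 294, 354 and 326 CPM in hd2b hd2c heat. All 3 neighbouring genes were higher in hd2b hd2c after heat, and the part of this position in the HSFA3 result was not tested. AT5G03710 overlaps HSFA3 by 486 bases on the opposite strand and averaged at most 0.236 CPM in any group.

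None of the other tested genes was called between genotypes after heat. HSFA2 was at 2111 ± 599.6 CPM in hd2b hd2c and 2293 ± 50.2 CPM in WT (−0.12, SE 0.183, adjusted p 0.801), and HSFA7A at 705 ± 92.4 and 708 ± 40.9 CPM (−0.01, SE 0.131, adjusted p 0.993). HSFA7B was at 221 ± 58.5 and 192 ± 2.77 CPM (0.21, SE 0.161, adjusted p 0.547), and passed without hd2b hd2c heat replicate 2 (0.41, adjusted p 0.0269). DREB2A was at 499 ± 80.5 and 569.7 ± 44.5 CPM (−0.19, SE 0.135, adjusted p 0.513), and DREB2B at 18.7 ± 3.38 and 22.3 ± 3.96 CPM (−0.22, SE 0.194, adjusted p 0.626). MBF1C was lower in all 3 hd2b hd2c libraries, at 946 ± 176 against 1286 ± 49.6 CPM, and did not pass (−0.44, SE 0.158, adjusted p 0.143). It passed without hd2b hd2c heat replicate 3 (−0.64, adjusted p 0.0244). DREB2C was higher in all 3, at 4.48 ± 0.380 against 2.28 ± 0.407 CPM, and did not pass (0.99, SE 0.291, adjusted p 0.0692). It passed with DESeq2 (adjusted p 0.0186) and without hd2b hd2c heat replicate 2 (0.043). Among all genes tested, 8.97% were higher and 8.66% lower in hd2b hd2c without overlap after heat.

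The interaction asks whether the log2 change with heat differed between genotypes. HSFA7A was the 1 gene of 9 called, against 0.336% of all genes, with a heat change larger by 1.01 in hd2b hd2c (SE 0.208, adjusted p 0.0284). Its levels after heat were nearly the same in both genotypes and its levels before heat were not, and this comparison uses the same normal libraries as the one above. The call was lost with library totals alone (adjusted p 0.364) and when any of 9 of the 12 libraries was left out (the highest adjusted p was 0.134). It held without WT normal replicate 3 and without hd2b hd2c heat replicate 2 or 3. The interaction of HSFA3 was 1.45 (SE 0.369, adjusted p 0.0941), and it passed with DESeq2 (0.0365), with no filter on low counts (0.006) and without hd2b hd2c heat replicate 2 (0.00617). The interaction of HSFA2 was 0.76 (SE 0.325, adjusted p 0.483), and without that replicate it was 0.96 (adjusted p 0.0402). DREB2A had 0.51 (adjusted p 0.441), DREB2B −0.06 (0.979), DREB2C 0.74 (0.6) and MBF1C −0.37 (0.707). CTR1, the neighbour of HSFA3, changed with heat by −0.13 in WT and by 2.30 in hd2b hd2c. Its interaction was 2.43 (SE 0.160, adjusted p 4.17e-09), and the part of position in the HSFA3 interaction was not tested.

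Genes listed as downstream of HSFA2 also rose with heat. The list was chosen with earlier results of these data known, so its share is a description and not a test. The part of HSFA2 in these rises was not tested. All 10 of a list of HSFA2 pathway genes rose with heat in WT, against 31.0% of all tested genes. Their median change was 9.88, against −0.14 for all genes tested. HSP101, a disaggregase needed for acquired heat tolerance, rose from 12.9 to 10171 CPM on average (9.63, SE 0.261), and the cytosolic ascorbate peroxidase APX2 from 7 counts to 3949, a 1300.5-fold ratio (95% counting interval 631 to 3237). In hd2b hd2c all 10 rose as well, against 29.9% of all tested genes. There APX2, with 0 counts before heat, was at least 5821-fold higher after it, taking 3 counts over its normal group as the floor. At normal temperature 2 of the 10 fell in hd2b hd2c, against 1.67% of all tested genes. They were the chaperone gene HSP70b (−0.85, SE 0.193, adjusted p 0.0152) and MIPS2, an inositol phosphate synthase gene (−0.69, SE 0.155, adjusted p 0.0132). With library totals alone neither was called (adjusted p 0.253 and 0.368). After heat APX2 was higher in hd2b hd2c (0.84, SE 0.138, adjusted p 0.00171) and HSP70b lower (−0.62, SE 0.153, adjusted p 0.0311), and the other 8 were not called. Of all tested genes 1.59% rose and 1.18% fell in that comparison. With library totals alone the APX2 and HSP70b calls after heat were lost (adjusted p 0.126 and 0.371).

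Of 5 tested genes listed downstream of DREB2A, 2 rose with heat in WT, against 31.0% of all tested genes. These were the late embryogenesis abundant gene LEA14 (2.74, SE 0.136) and the dehydrin gene COR47 (0.97, SE 0.138), the latter turning to −0.56 with library totals alone. RD29A, the gene most used as a DREB reporter, averaged 122 CPM before heat (94.8 to 141) and 145 CPM after it (116 to 169) and was not called (0.25, adjusted p 0.349). Its sign rests on the scaling, since library totals alone gave −1.26 (adjusted p 0.000739). COR15A, a cold-induced chloroplast protein gene, rose in hd2b hd2c against WT at normal temperature (1.05, SE 0.168, adjusted p 0.000915) and after heat (1.24, SE 0.172, adjusted p 0.000257). COR47 fell after heat in hd2b hd2c against WT (−0.52, SE 0.138, adjusted p 0.0407), a call lost with library totals alone (adjusted p 0.484). Of 3 genes listed downstream of MBF1C, the trehalose phosphate synthase gene TPS5 (1.66, SE 0.148) and the transcription factor gene WRKY33 (2.57, SE 0.267) rose with heat in WT, though TPS5 was not called with library totals alone (0.14, adjusted p 0.621). PR1 had 0 counts in every library.

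Among 10 tested regulators of DREB2A and of HSFs, 3 rose and 4 fell with heat in WT, counts near the 31.0% and 34.8% of all tested genes. ROF2, an immunophilin that binds HSFA2 through a chaperone, rose by 8.40 (SE 0.210) and its relative ROF1 by 4.25 (SE 0.181). The third, the HSF-binding protein gene HSBP, rose by 0.47, and that turned to −1.07 with library totals alone. DRIP1, a ubiquitin ligase that targets DREB2A, fell from 5.83 to 2.34 CPM on average (adjusted p 0.000422), RCD1, which also restrains DREB2A, fell by 0.74 (SE 0.108), and the factor genes NF-YA2 and NF-YB3 fell by 3.01 (SE 0.230) and 0.78. At normal temperature ROF2 was lower in hd2b hd2c (−1.38, SE 0.217, adjusted p 0.000658), at 1.02 ± 0.106 against 2.69 ± 0.181 CPM. With library totals alone ROF2 was not called there (adjusted p 0.0725). The other DREB2 genes were scarce. DREB2E rose with heat in WT from 8 to 28 counts (2.95, SE 0.749; 1.45 with library totals alone, adjusted p 0.101) and was higher in hd2b hd2c at normal temperature, with 59 counts (2.71, SE 0.707, adjusted p 0.037). DREB2D and DREB2F fell with heat in WT. MBF1A rose by 0.91 in WT (SE 0.119; −0.61 with library totals alone) and MBF1B was not called (−0.28), so MBF1C was the only gene of that family with a rise above 1 on the log2 scale.

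The run of 3 heat shock element units described above was looked for in the windows of all protein-coding genes, whatever their response to heat. Of 81 tested genes with such a run in their 250-base window, leaving out the 4 described here, 38 rose and 18 fell with heat in WT. That is 46.9% rising against 31.0% of all tested genes, with a median change of 0.43 against −0.14. No test was made of these shares. DREB2B and MBF1C rose without a run of 3 units in their windows, and the MBF1C window lies inside another gene.

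Some genes had profiles most like these over the 12 libraries, by the root mean square difference of centred log2 CPM among 14282 candidates with at least 5 CPM in a group. The nearest to HSFA2 were Hsp70b (0.25), HSP101 (0.36) and APX2 (0.48), all of which are in the HSFA2 list above. That list was chosen with earlier results of these data known. The nearest to HSFA7A was AT1G66080 (0.32), followed by ELIP1 (0.33), a gene for an early light-induced chlorophyll-binding protein. HSFA7B was nearest to HSP21 (0.36), a chloroplast small heat shock protein gene, and DREB2A to the chloroplast disaggregase gene CLPB3 (0.20). MBF1C was nearest to PDX1.2 (0.28), a heat-induced gene of vitamin B6 synthesis, and DREB2B to the alternative oxidase gene AOX1A (0.21). For HSFA3 the nearest were BCA3 (0.42), a carbonic anhydrase gene, and the neighbour of HSFA3, CTR1 (0.46). DREB2C was nearest to AT5G06120 (0.12), and HSFA6B had no candidate nearer than 0.46. Beside HSFA2, 158 bases away and pointing the other way, ftsh4, a mitochondrial protease gene, rose with heat by 3.19 (SE 0.129) in WT, from 63.3 to 578 CPM on average, and by 3.74 (SE 0.132) in hd2b hd2c. The printed HSFA2 stretch is the whole sequence between the starts of HSFA2 and ftsh4.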

How the data were processed

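Levels are from 12 RNA sequencing libraries of seedlings, 3 in each of 4 groups taken from the labels. The deposited table holds raw read counts by gene, in whole numbers and without normalisation. The submitters' processing notes name HISAT2 2.1.0, featureCounts 2.0.3 and TAIR10. They do not give the strand setting or the treatment of reads that align to several places, so overlapping genes are uncertain. Trizol extraction and an Abclonal kit are named per the labels' protocols.

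The test was edgeR's robust quasi-likelihood F test (edgeR 4.0.16, R 4.3.3, two-sided) in 1 fit of the 4 groups, after filterByExpr (minimum count 10, minimum total 15), with factors by trimmed mean of M values (TMM) and Benjamini-Hochberg adjustment over 20232 genes. The SE of a log2 fold change is its size over the root of its F value. Exact intervals are conditional binomial at 95%, floors are 3 counts over a group, and both cover counting error only. The fit was tested on simulated data. Alternatives were other scalings, no filter, DESeq2 1.42.0, fits of the compared groups only, a replicate block and leaving out each library. The 10 genes and the lists were chosen with earlier results of these data known. All 10 genes are named, with some of the listed genes and, for likeness, some of the 3 nearest per gene. Gene neighbours, exon lengths and upstream sequence come from TAIR10.1. Same-numbered libraries were checked for pairing and are not treated as pairs.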

Additional observations from a re-analysis of the deposited data

Results flagged for a closer look

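The heat change of HSFA7A differed between genotypes by a test of that difference itself, being larger by 1.01 on the log2 scale in hd2b hd2c than in WT (SE 0.208; the quasi-likelihood test of edgeR gave an adjusted p of 0.0284). The change was 7.02 in WT and 8.03 in hd2b hd2c, from 5.47 and 2.68 CPM before heat to 708 and 705 CPM after it (n = 3 each). The size stayed between 0.90 and 1.11 in 18 alternatives, of which 7 passed the threshold. In hd2b hd2c heat replicate 2, the library with most ribosomal RNA, HSFA7A was the highest of its group at 811 CPM, and without that library the difference was 0.90 (adjusted p 0.00581).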

How the results depend on the processing

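The 6 and 7 genes that rose with heat in WT and in hd2b hd2c kept their number in every alternative except library totals alone, which called 9 in WT (6 higher, and HSFA3, HSFA6B and DREB2C lower) and 7 in hd2b hd2c (6 higher, 1 lower) and moved the median of all genes with heat in WT from −0.14 to −1.67. Called genes at normal temperature numbered 2, or 1 with library totals alone, 3 with DESeq2, 3 with no filter on low counts, and 1 to 3 when single libraries were left out. After heat they numbered 1, or 2 with DESeq2, and 1 to 3 without single libraries. In the interaction they numbered 1, or 0 with library totals alone, 2 with no filter on low counts, 2 with DESeq2, 0 with the replicate block, and 0 to 3 without single libraries. The replicate block took the HSFA7A interaction to an adjusted p of 0.0577 and changed no other count of these genes. Same-numbered libraries deviated together with correlations of −0.132 to 0.146, and 2 of 12 libraries correlated best with their own number, so the numbers do not pair them. Signs turned for HSFA7A after heat (0.00 with upper-quartile factors, 0.06 with library totals alone), HSFA3 with heat in WT (−1.12), HSFA6B and DREB2C with heat in hd2b hd2c (−0.70 and −0.98) and HSFA2 after heat (0.05), all with library totals alone unless named. Without single libraries the ranges were −0.20 to 0.14 for MBF1C and −0.30 to 0.03 for DREB2B at normal temperature, −0.25 to 0.08 for the DREB2B interaction, and −0.11 to 0.06 for HSFA7A and −0.32 to 0.10 for HSFA2 after heat. None of these was called except HSFA3 (adjusted p 0.0101) and DREB2C (0.00682), and the cause was not tested. Over all genes, 536 were called at normal temperature (102 with library totals alone, 1655 in the fit of the compared groups, 216 to 1061 without single libraries), 559 after heat (53, 79, 340 with the replicate block, 985 with DESeq2, 851 with no filter, 152 to 1435) and 68 in the interaction (10, 180 with no filter, 207 with DESeq2, 16 to 339). With heat, increases were 47.1% of calls in WT, 36.8% with upper-quartile factors and 6.05% with library totals alone. With library totals alone they were 72.5% in place of 36.9% between genotypes at normal temperature, 73.6% in place of 57.4% after heat and 20% in place of 44.1% in the interaction. Low counts limit HSFA6A, HSFA6B and the normal groups of HSFA7B.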
